A study of Astyanax mexicanus with 96 samples.

Results

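Genes that move calcium in and out of the cardiomyocyte were followed in the ventricle of the Mexican tetra, Astyanax mexicanus, across injury and recovery. A gene was included when its symbol marked it as a cardiac ryanodine receptor (ryr2), the cardiac reticulum calcium pump (atp2a2), phospholamban (pln), cardiac calsequestrin (casq2), the sodium-calcium exchanger (slc8a1), the pore subunit of the L-type calcium channel (cacna1c) or triadin (trdn). The deposited table held 9 such genes among 27420. They were RYR2, ryr2b, casq2, CASQ2, trdn, slc8a1a, slc8a1b, cacna1c and PLN. No gene carried an atp2a2 symbol, and 2 genes that stand in its place are described after the others.

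Surface fish (SF) belong to the river population of this species and Pachón cavefish (PC) to a blind cave population. Adult ventricles were collected after cryo-injury at 6 h (6 hpci) and at days 1, 3, 7, 14 and 30 (dpci), after sham surgery at 6 h (6 hps) and at days 1 and 3 (dps), and from fish without surgery. In a cryo-injury a copper probe cooled in liquid nitrogen touched the tip of the ventricle, and in sham surgery the probe was at room temperature. Each operated group held 5 single ventricles and each uninjured group 3, which gave 96 libraries in 20 groups, and neither population carried a transgene or mutation named in the labels. Cryo-injured ventricles at 7, 14 and 30 dpci had no sham group and were compared with uninjured ventricles, so that surgery and freezing cannot be told apart there.

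With each heartbeat, calcium enters the cardiomyocyte through the L-type channel and opens ryanodine receptors, which release a larger store from the sarcoplasmic reticulum. Calsequestrin holds calcium inside that store, and triadin ties calsequestrin to the release channel. The beat ends when the reticulum pump SERCA2, held back by phospholamban, refills the store and the sodium-calcium exchanger carries the rest out of the cell. These genes are strongly expressed in heart muscle.

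Total counts ran from 672292 to 2586602 per library, with a median of 1687721.5. Levels are given as CPM, read counts scaled to a common library total after TMM (trimmed mean of M values) adjustment. Tests were edgeR quasi-likelihood tests over 18763 genes with 1 factor of unwanted variation (RUVg) as a covariate. To be called, a gene needed a change of over 2-fold with an adjusted p (Benjamini-Hochberg) under 0.05. That factor differed between groups. Its mean was -0.074 in SF at 7 dpci and 0.112 in uninjured SF, and -0.178 in PC at 7 dpci and -0.021 in uninjured PC, so fitted changes can depart from the CPM means beside them. In every condition the mean of the factor was higher in SF than in PC, as at 1 dpci (0.049 and -0.065). Population and the factor are thus partly confounded in the tests of SF against PC. Values from the fit without the factor are therefore given where the call differed.

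The tissue label fitted the markers. The summed level of 14 cardiomyocyte markers, led by myl7, cmlc1 and myh7l, ranged over group means from 19942 CPM in PC at 7 dpci to 54917 CPM in SF at 30 dpci. At 1 dpci it was 20941 CPM in SF and 27997 CPM in PC, against 44995 CPM in SF and 52289 CPM in PC at 1 dps. In whole ventricles, fewer cardiomyocytes and less RNA per cardiomyocyte cannot be told apart. Red blood cell markers summed to 47957 ± 21568 CPM in SF at 7 dpci, against 8421 ± 2253 CPM in uninjured SF (SD). In PC they summed to 17635 ± 15182 CPM, against 8884 ± 3802 CPM. Fibroblast and epicardial markers summed to 3851 CPM in SF at 7 dpci, against 593 CPM uninjured, and to 3533 CPM in PC, against 595 CPM. Skeletal muscle markers summed to 4638 ± 2756 CPM in SF at 7 dpci (highest library 9519) and 5966 ± 3583 CPM at 14 dpci (highest 12215). In uninjured SF they summed to 7767 ± 1311 CPM. In PC they summed to 1619 ± 481 CPM at 7 dpci and 3839 ± 371 CPM at 14 dpci, against 5982 ± 194 CPM uninjured. That list includes the 2 genes labelled ATP2A1 described below. The part of cardiomyocyte content and of these other cells in the changes that follow was not tested. Levels per 1000 cardiomyocyte marker reads are given near the end.

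All 9 genes passed the filter of 1 CPM in any library, and they were read at very different depths. The exchanger slc8a1a (ENSAMXG00000011704) and casq2 (ENSAMXG00000002106), both on unplaced scaffolds of Mexican tetra 2.0, had median counts of 1158 and 1092.5 per library. The gene trdn (ENSAMXG00000034208, chr3:35230865-35247340, plus strand) had a median of 82 reads, ryr2b (ENSAMXG00000011163, chr9:13274658-13397477, plus strand) 63.5 and RYR2 (ENSAMXG00000042327, chr6:17920419-18188687, plus strand) 26. These 5 genes had reads in all 96 libraries.

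The other 4 genes were close to the limit of detection. The channel gene cacna1c (ENSAMXG00000007676, chr7:33713217-33816703, plus strand) had 155 reads in total, the second calsequestrin copy CASQ2 (ENSAMXG00000038552, chr12:17030079-17046121, minus strand) had 194, PLN (ENSAMXG00000029466, chr3:48282483-48282641, minus strand) had 16 and slc8a1b (ENSAMXG00000001992, chr9:6401183-6407549, minus strand) had 11. The libraries read the 3′ ends of transcripts, and the gene models of PLN and slc8a1b ended 3 bases past the last coding base, so that reads in an unannotated 3′ untranslated region would not be counted. Their low counts are no measure of expression. The model of trdn ended in the same way. PLN also overlapped 1 gene on the other strand, and whether counting used strand is not given in the sources used here.

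**Figure D1:**
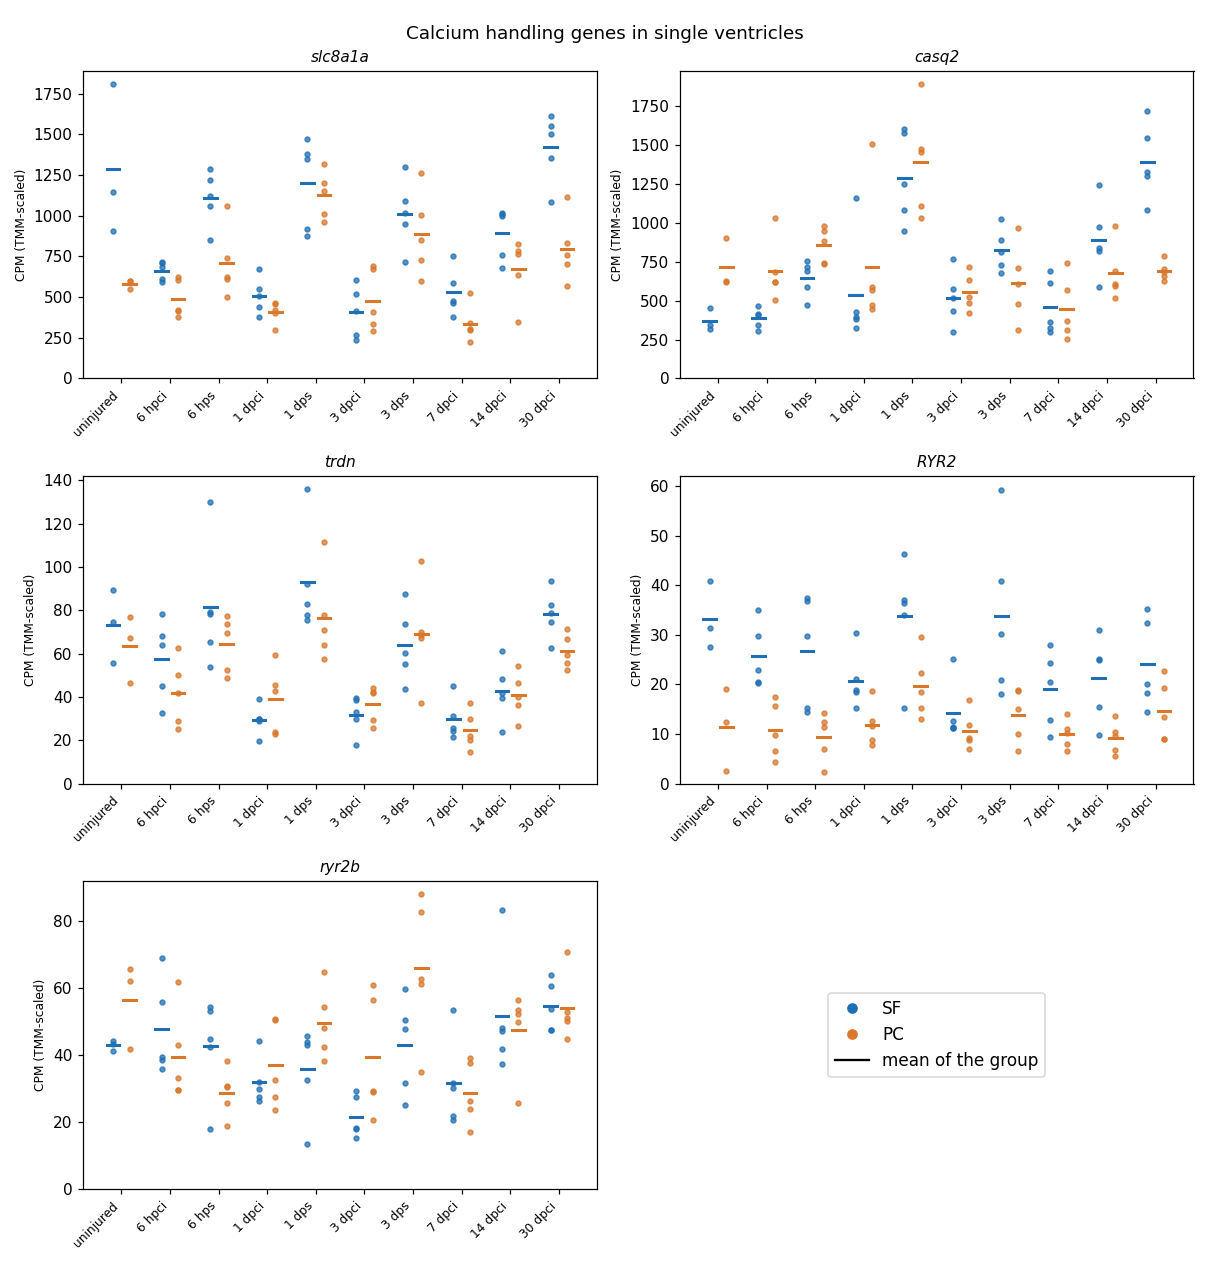
CPM of the 5 well-detected genes in each ventricle (points) with group means (bars), for SF (blue) and PC (orange) in 10 conditions. In SF, casq2 lies between 1083 and 1717 CPM at 30 dpci and between 319 and 450 CPM in uninjured ventricles. The group means of trdn and slc8a1a from 1 to 7 dpci lie below the uninjured mean in both populations. In PC some of these groups overlap the uninjured ventricles, as slc8a1a does at 3 dpci.

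Cardiac calsequestrin, the calcium buffer of the reticulum, was higher in SF at 14 and 30 dpci than in uninjured SF. In SF at 30 dpci casq2 measured 1543, 1325, 1717, 1083 and 1299 CPM, against 319, 342 and 450 CPM in uninjured SF. Every ventricle at 30 dpci lay above every uninjured one, and the log2 change was 2.19 ± 0.30 (SE; adjusted p = 1.1e-07). At 14 dpci the ventricles held 588, 818, 1244, 841 and 974 CPM, again above all uninjured ones, with a log2 change of 2.18 ± 0.34 (adjusted p = 5.5e-06). Without the RUVg factor these changes were 1.91 and 1.27, and both were still called. Uninjured SF, the reference for both changes, had the lowest mean casq2 of all 20 groups, at 370 CPM. The sham calls in SF and the differences between populations in the change from uninjured ventricles, given below, use the same reference.

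At 7 dpci the same gene gave a different picture. The SF ventricles measured 691, 300, 322, 360 and 616 CPM and overlapped the uninjured range. The fitted log2 change was 1.54 ± 0.37 (adjusted p = 0.0067), but 0.31 without the RUVg factor (adjusted p = 0.57), so this call rests on the factor. It was also lost without replicate 1 or replicate 2, where the log2 change was 1.16 and 0.96, and when the compared groups were fitted alone (1.47, adjusted p = 0.52).

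Against the sham group of the same time, casq2 had a lower mean in injured SF ventricles. It averaged 388 ± 64.3 CPM at 6 hpci, against 644 ± 116 CPM at 6 hps, with no overlap and a log2 change of -0.49 (adjusted p = 0.36). At 1 dpci it averaged 538 ± 349 CPM, against 1291 ± 293 CPM at 1 dps, with overlap and a log2 change of -0.72 (adjusted p = 0.14). At 3 dpci it averaged 518 ± 173 CPM, against 828 ± 138 CPM at 3 dps (SD, n = 5 each), with overlap and a log2 change of -0.23 (adjusted p = 0.71). None of these was called with the factor, and the change at 1 dpci was called without it (-1.26).

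The gene casq2 was also higher in SF after sham surgery than in uninjured SF. At 1 dps casq2 measured 1248, 1081, 1579, 1601 and 948 CPM in SF, against 319, 342 and 450 CPM in uninjured SF, a log2 change of 1.66 ± 0.29. At 3 dps it held 731, 675, 1028, 815 and 890 CPM, a log2 change of 1.78 ± 0.31. Neither group overlapped the uninjured ventricles, and both calls held without the factor. These were 2 calls among 54 tests of sham against uninjured (3.7%), where 4.75% of all gene tests were called. For SF 1 dps the share of all genes called was 8.85%, and for SF 3 dps 2.38%. Without the factor these shares were 8.22% and 4.16%.

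In PC, casq2 was not called in any injury or sham comparison. It measured 704, 686, 785, 628 and 656 CPM at 30 dpci, against 621, 904 and 624 CPM in uninjured PC, and the groups overlapped. At 1 dps it reached 1107, 1477, 1895, 1455 and 1028 CPM, above every uninjured ventricle, but the log2 change of 0.70 ± 0.28 was not called (adjusted p = 0.13). The change from uninjured ventricles was larger in SF than in PC by 1.94 ± 0.38 on the log2 scale at 30 dpci (adjusted p = 0.0023) and by 1.70 ± 0.39 at 14 dpci (adjusted p = 0.012). Of all genes, 0.4% were called in this test of the difference at 30 dpci and 0.949% at 14 dpci. Without the factor the difference at 30 dpci was 1.96 and called (adjusted p = 0.012; 0.219% of all genes), and at 14 dpci it was 1.35 and not called (adjusted p = 0.13). Leaving out replicate 2 or replicate 3 of every group ended both calls, with differences of 1.83 and 1.63 at 30 dpci and 1.45 and 1.31 at 14 dpci. All these differences share the 3 uninjured ventricles of each population.

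The sodium-calcium exchanger slc8a1a, the main route of calcium out of the cell, was lower early after freezing. In PC at 1 dpci it measured 463, 295, 402, 458 and 419 CPM, against 1154, 964, 1199, 1318 and 1009 CPM at 1 dps, with no overlap. Uninjured PC lay between these groups, at 551 to 597 CPM, so the sham group itself stood above uninjured ventricles. Against 1 dps, the level at 1 dpci was lower by 1.07 ± 0.23 on the log2 scale (adjusted p = 0.0018). This difference was the single call among 54 tests in PC, where 1.42% of all genes were called at 1 dpci (4.15% without the factor). Leaving out replicate 1 or replicate 4 ended the call, with log2 changes of -0.98 and -0.75, and so did a second RUVg factor (-0.37) or a filter of 10 counts in 5 libraries (-0.47).

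In SF the same gene showed a similar pattern below the 2-fold threshold. At 3 dpci the SF ventricles held 234, 412, 269, 517 and 604 CPM, against 1093, 948, 1300, 713 and 1015 CPM at 3 dps, with no overlap and a log2 change of -0.96 ± 0.22 (adjusted p = 0.0015). At 1 dpci they held 380, 438, 549, 672 and 505 CPM, against 1379, 1470, 875, 921 and 1348 CPM at 1 dps, with a log2 change of -0.79 ± 0.23 (adjusted p = 0.052). Without the factor both were called, with log2 changes of -1.32 and -1.24, and so was SF at 7 dpci against uninjured SF, with -1.28. At 30 dpci slc8a1a averaged 1420 ± 211 CPM in SF (SD, n = 5), against 1288 ± 469 CPM in uninjured SF (n = 3).

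Triadin, which anchors calsequestrin at the release channel, fell in SF at 1 dpci. There trdn measured 30, 19.9, 29.7, 39 and 28.8 CPM, against 136, 75.6, 77.9, 92.1 and 83 CPM at 1 dps, a log2 change of -1.14 ± 0.25 (adjusted p = 0.004). The groups did not overlap. In PC at 1 dpci it measured 59.4, 23, 45.7, 42.7 and 23.8 CPM, against 63.8, 57.4, 112, 70.7 and 77.8 CPM at 1 dps, with overlap and a log2 change of -0.48 ± 0.25 (adjusted p = 0.39). A test of SF change against PC change did not call trdn, so a larger change in SF was not shown. The SF call was lost without replicate 1, 4 or 5, where the log2 change was -0.96, -1.03 and -0.96, and with a second RUVg factor (-0.83) or a filter of 10 counts in 5 libraries (-0.76). At 7 dpci trdn averaged 29.7 ± 9.4 CPM in SF, against 73.3 ± 16.8 CPM in uninjured SF, and 24.7 ± 8.8 CPM in PC, against 63.5 ± 15.7 CPM in uninjured PC (SD, n = 5 and 3). These groups did not overlap and were called without the factor, with log2 changes of -1.31 in SF and -1.38 in PC. With the factor the changes were -0.23 and -0.42 and were not called.

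**Figure D2:**
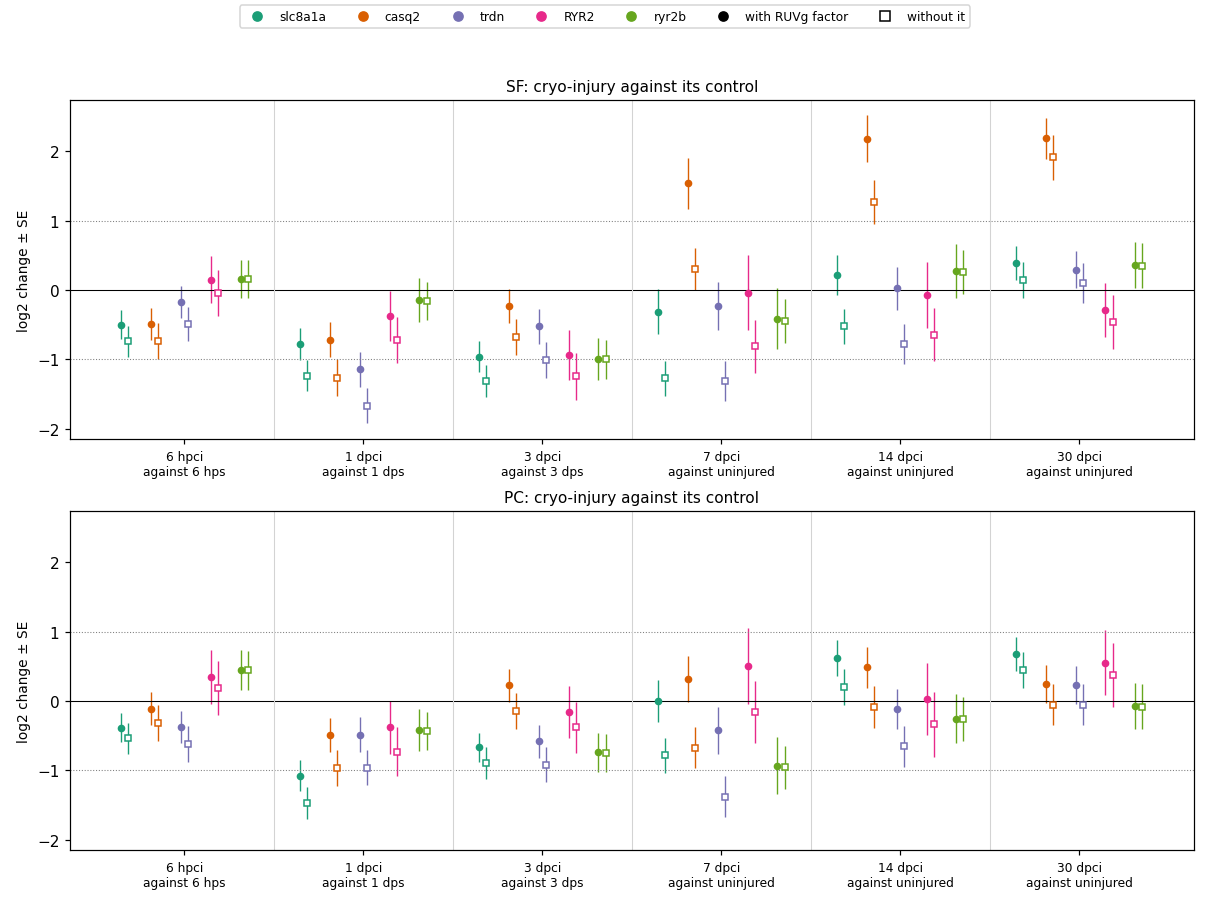
Log2 change ± SE of cryo-injury against its control for the 5 well-detected genes, in SF (top) and PC (bottom), fitted with the RUVg factor (filled circles) and without it (open squares). Dotted lines mark a 2-fold change. For casq2 in SF the changes at 14 and 30 dpci lie above the upper line in both fits, and at 7 dpci the fits part.

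The release channels were called in no injury comparison with the factor. RYR2, whose named neighbours place it beside the gene annotated ryr2a in RefSeq (6 of 10 shared), measured 11.4, 11.2, 11.2, 12.7 and 25.1 CPM in SF at 3 dpci, against 40.8, 21, 59.2, 18.2 and 30.1 CPM at 3 dps. The groups overlapped, and the log2 change was -0.94 ± 0.36 (adjusted p = 0.10). Its copy ryr2b measured 18, 15.1, 17.8, 27.3 and 29.3 CPM in SF at 3 dpci, against 31.6, 50.3, 59.8, 47.8 and 25 CPM at 3 dps, a log2 change of -0.99 ± 0.30 (adjusted p = 0.026) that stayed just under 2-fold. Both were called without the factor, with log2 changes of -1.24 and -1.003. Neither was called in PC.

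Over the 6 injury comparisons in SF, 4 of 54 tests of these genes were called (7.41%), 3 higher (casq2 at 7, 14 and 30 dpci) and 1 lower (trdn at 1 dpci), beside 2.54% of the tests of all genes. By comparison, all genes were called in 0.65% of tests for 6 hpci, 1.17% for 1 dpci, 4.55% for 3 dpci, 3.03% for 7 dpci, 2.47% for 14 dpci and 3.39% for 30 dpci. Without the factor 11 were called (20.4%), 2 higher and 9 lower, beside 6.28% of all tests, so that the balance of directions turned with the factor. Among the 9 lower ones was trdn at 3 dpci (log2 change -1.01, no overlap), which was not called with the factor. The shares of all genes were then 4.96% for 1 dpci, 7.37% for 3 dpci, 12.7% for 7 dpci, 7.63% for 14 dpci and 3.52% for 30 dpci. In PC 1 of 54 was called (1.85%), beside 1.47% of all tests, and 2 without the factor (slc8a1a at 1 dpci and trdn at 7 dpci, where 11.1% of all genes were called).

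Time after injury was compared within each population. Between 30 and 7 dpci none of the 9 was called by edgeR with the factor, nor by DESeq2. In the edgeR fit with the factor the share over all genes was 1.73% for SF and 2.97% for PC. In that fit 8 of the 36 tests of later against earlier times had an unadjusted p under 0.05. Without the factor 5 were called, all higher at 30 dpci, where 8.74% of all genes were called in the SF comparison and 9.12% in the PC one. In SF these were casq2 (log2 change 1.61), slc8a1a (1.42) and trdn (1.41), and in PC slc8a1a (1.24) and trdn (1.33). For these pairs the ventricles at 30 and 7 dpci did not overlap, as with slc8a1a in SF at 1550, 1500, 1354, 1083 and 1614 CPM at 30 dpci, against 379, 476, 467, 588 and 750 CPM at 7 dpci.

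The populations were then compared in each condition. Of 90 tests 6 were called (6.67%), beside 6.74% of the tests of all genes, which is no more than the background. In uninjured ventricles casq2 measured 319, 342 and 450 CPM in SF, against 621, 904 and 624 CPM in PC, with no overlap and a log2 change of -1.85 ± 0.35 (adjusted p = 0.00013), where 5.78% of all genes were called. It was also lower in SF at 6 hps (log2 change -1.15, where 6.36% of all genes were called), 6 hpci (-1.54, 6.92%) and 1 dpci (-1.11, 7.92%). At 1 dpci trdn was lower too (log2 change -1.10 ± 0.27), with 29.4 ± 6.8 CPM in SF and 38.9 ± 15.5 CPM in PC and overlapping groups. At 1 dpci both genes lost the call when a single replicate was left out, casq2 without replicate 1 (-0.59) or 5 (-0.90) and trdn without replicate 4 (-0.76), and at 6 hps casq2 lost it without replicate 2 (-0.96) or 4 (-0.84). A second RUVg factor also ended the calls of casq2 at 6 hps (-0.71) and 1 dpci (-0.53) and of trdn at 1 dpci (-0.52), and so did a filter of 10 counts in 5 libraries (-0.59, -0.20 and -0.13). Fitting the compared groups alone ended the casq2 calls in uninjured ventricles (-1.72, adjusted p = 0.13), at 6 hps (-0.28) and at 6 hpci (-1.95, adjusted p = 0.063). None of these 5 calls held without the factor, whose mean was higher in SF than in PC in every condition. Without it the uninjured change was -0.95 (adjusted p = 0.077). At 30 dpci the order of the casq2 means was the other one. There casq2 averaged 1393 ± 243 CPM in SF ventricles, against 692 ± 59.6 CPM in PC ventricles (SD, n = 5 each), with no overlap. That change was called without the factor (log2 change 1.01; 6.27% of all genes), and was 0.09 with it. In uninjured ventricles slc8a1a was higher in SF without the factor (log2 change 1.15, no overlap) and not called with it (0.44, adjusted p = 0.49).

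The release channel RYR2 had a higher mean in SF in 10 of 10 conditions, with ratios of SF to PC means from 1.34 to 2.93. In uninjured ventricles it measured 31.4, 27.5 and 41 CPM in SF, against 2.51, 19.1 and 12.4 CPM in PC. No condition was called with the factor, where the smallest adjusted p was 0.15, and 5 were called without it (uninjured, 6 hps, 3 dps, 6 hpci and 14 dpci). In that fit the shares of all genes called were 5.4%, 5.61%, 6.9%, 6.72% and 6.53%. The groups did not overlap in 3 conditions. Its copy ryr2b had a higher SF mean in 5 of 10 conditions and was called in none in either fit. Since PC reads were mapped on the SF genome, sequence differences can lower PC counts, and their part in these contrasts was not tested.

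**Figure D3:**
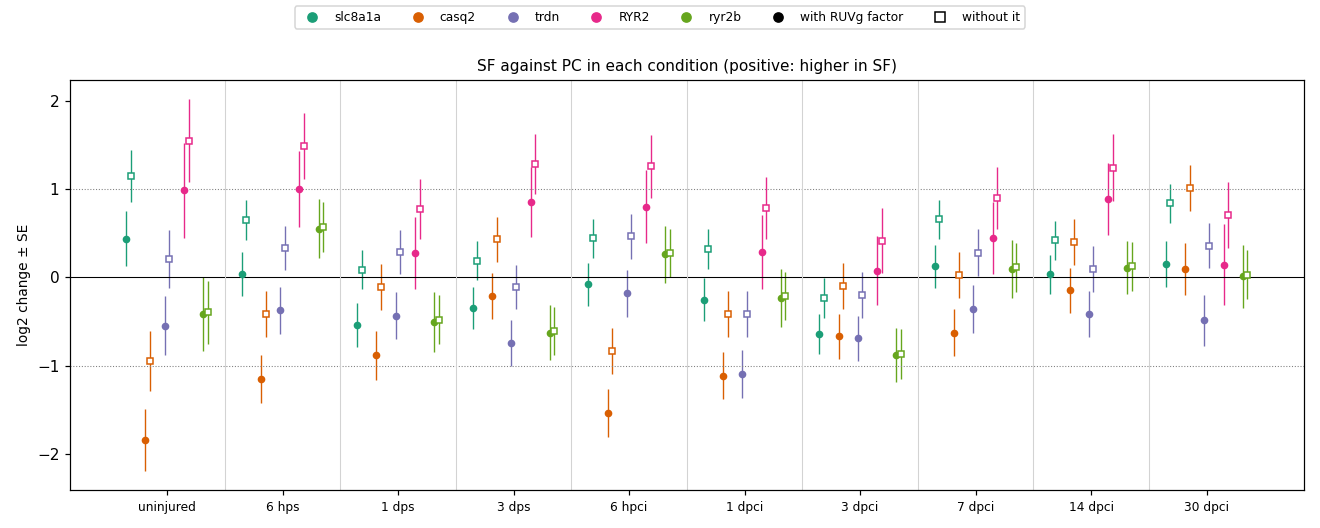
Log2 change ± SE of SF against PC in each condition for the 5 well-detected genes, fitted with the RUVg factor (filled circles) and without it (open squares). Dotted lines mark a 2-fold difference. RYR2 lies above 0 in every condition in the fit without the factor, and casq2 lies below the lower line in uninjured ventricles, at 6 hps, 6 hpci and 1 dpci in the fit with it.

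Among the rarely read genes, CASQ2 differed most between populations. Over all conditions it had 163 reads in 48 SF libraries and 31 reads in 48 PC libraries, a ratio of 4.81 after scaling (95% exact interval 3.26 to 7.31, which covers counting error only). At 3 dpci the SF ventricles had 2, 10, 5, 3 and 10 reads, against 1, 0, 0, 0 and 0 in PC, and the difference was called (adjusted p = 0.036), where 6.44% of all genes were called (5.92% without the factor). The call was lost without replicate 2, 3 or 5 and with no filter beyond 1 read (adjusted p = 0.32, 0.13, 0.11 and 0.10). It was also lost with a second RUVg factor and with the compared groups fitted alone (adjusted p = 0.11 and 0.81). At 14 dpci CASQ2 was called without the factor alone (adjusted p = 0.035, against 0.094 with it). The channel gene cacna1c had 56 reads in SF and 99 in PC, a ratio of 0.518 (0.366 to 0.725), and was called in no condition. PLN had 6 reads in SF and 10 in PC, and slc8a1b had 5 in SF and 6 in PC. For PLN and slc8a1b no difference can be read from so few reads, and their gene models can miss reads in the 3′ untranslated region.

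The reticulum pump was present under another symbol. A gene labelled ATP2A1 on chromosome 6 (ENSAMXG00000010004, chr6:36296634-36331447, plus strand) shared 13 of 15 named neighbours with atp2a2a in RefSeq. A second gene labelled ATP2A1, on chromosome 14 (ENSAMXG00000016269), shared 13 of 15 with atp2a2b. They are described beside the 9 genes and were not counted with them. The chromosome 6 gene rose at 1 dps. It measured 468, 497, 469, 761 and 429 CPM in PC at 1 dps, against 199, 199 and 178 CPM in uninjured PC, with no overlap and a log2 change of 1.24 ± 0.27 (adjusted p = 0.0009). In SF at 1 dps it measured 935, 1254, 624, 576 and 870 CPM, against 272, 310 and 585 CPM in uninjured SF, with overlap and a log2 change of 1.00 ± 0.26 (adjusted p = 0.0052). At 3 dps it averaged 412 ± 130 CPM in SF, against 389 ± 171 CPM in uninjured SF, with overlap and no call. In PC it averaged 315 ± 76.4 CPM at 3 dps, against 192 ± 12.2 CPM in uninjured PC (SD, n = 5 and 3), which was called with the factor (log2 change 1.11) and not without it (0.72). At 6 hps it was called in neither population.

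After freezing the chromosome 6 gene measured 116, 158, 160, 173 and 255 CPM in SF at 3 dpci, against 527, 399, 559, 257 and 319 CPM at 3 dps. These groups did not overlap, but the log2 change of -0.80 ± 0.24 was under 2-fold (adjusted p = 0.025). Without the factor it was -1.26 and called. At 1 dpci the gene averaged 378 ± 76.7 CPM in SF, against 852 ± 272 CPM at 1 dps. In PC it averaged 321 ± 65.8 CPM at 1 dpci, against 525 ± 134 CPM at 1 dps (SD, n = 5 each). Neither population showed overlap there, and no injury comparison of this gene was called with the factor. The chromosome 14 gene averaged 68.4 ± 10.99 CPM in SF at 1 dps (SD, n = 5), against 27.9 ± 7.3 CPM in uninjured SF (n = 3), a called log2 change of 1.31 ± 0.30 (adjusted p = 0.0009). Its mean at 1 dpci was not lower in SF, at 77.3 ± 23.6 CPM. In PC it averaged 50.4 ± 2.1 CPM at 1 dpci, against 52.3 ± 5.9 CPM at 1 dps.

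Relative to cardiomyocyte markers the genes separated. In SF, casq2 had 25.6 ± 4.6 reads per 1000 marker reads at 30 dpci and 18.8 ± 5.9 at 7 dpci, against 8.42 ± 1.14 in uninjured ventricles (SD). It was already at 24.7 ± 8.4 at 1 dpci and 20.9 ± 2.0 at 3 dpci, and at 29.3 ± 8.3 at 1 dps. At 6 hpci it was at 9.84 ± 1.21. The higher casq2 ratio in SF was thus not limited to late times after injury. However, the marker sum in SF was 20941 CPM at 1 dpci and 24276 CPM at 7 dpci, against 43848 CPM uninjured. In CPM, casq2 in SF at 1, 3 and 7 dpci overlapped the uninjured range. The part of the lower marker sum in these ratios was not tested. In PC casq2 had 15.6 ± 1.9 at 30 dpci and 22.1 ± 5.2 at 7 dpci, against 14.6 ± 3.0 in uninjured ventricles. Early PC values were 19.7 ± 2.2 at 6 hpci, 24.4 ± 8.3 at 1 dpci and 20.4 ± 1.8 at 3 dpci. After sham surgery PC had 26.4 ± 4.1 at 1 dps and 11.6 ± 4.0 at 3 dps. For trdn the SF values were 1.23 ± 0.25 at 7 dpci, against 1.71 ± 0.56 in uninjured ventricles, and 1.44 ± 0.20 at 1 dpci, against 2.05 ± 0.28 at 1 dps. In PC trdn had 1.36 ± 0.27 at 1 dpci, against 1.44 ± 0.27 at 1 dps. For slc8a1a the SF values were 25.2 ± 5.0 at 1 dpci, against 27.0 ± 6.8 at 1 dps, and 16.4 ± 3.8 at 3 dpci, against 20.2 ± 2.9 at 3 dps. In PC slc8a1a had 14.9 ± 2.5 at 1 dpci, against 21.7 ± 2.6 at 1 dps, and 17.1 ± 3.7 at 3 dpci, against 17.3 ± 5.2 at 3 dps. Uninjured ventricles had 29.0 ± 8.6 slc8a1a reads in SF and 11.9 ± 0.8 in PC. These ratios are a description and carry no test.

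**Figure D4:**
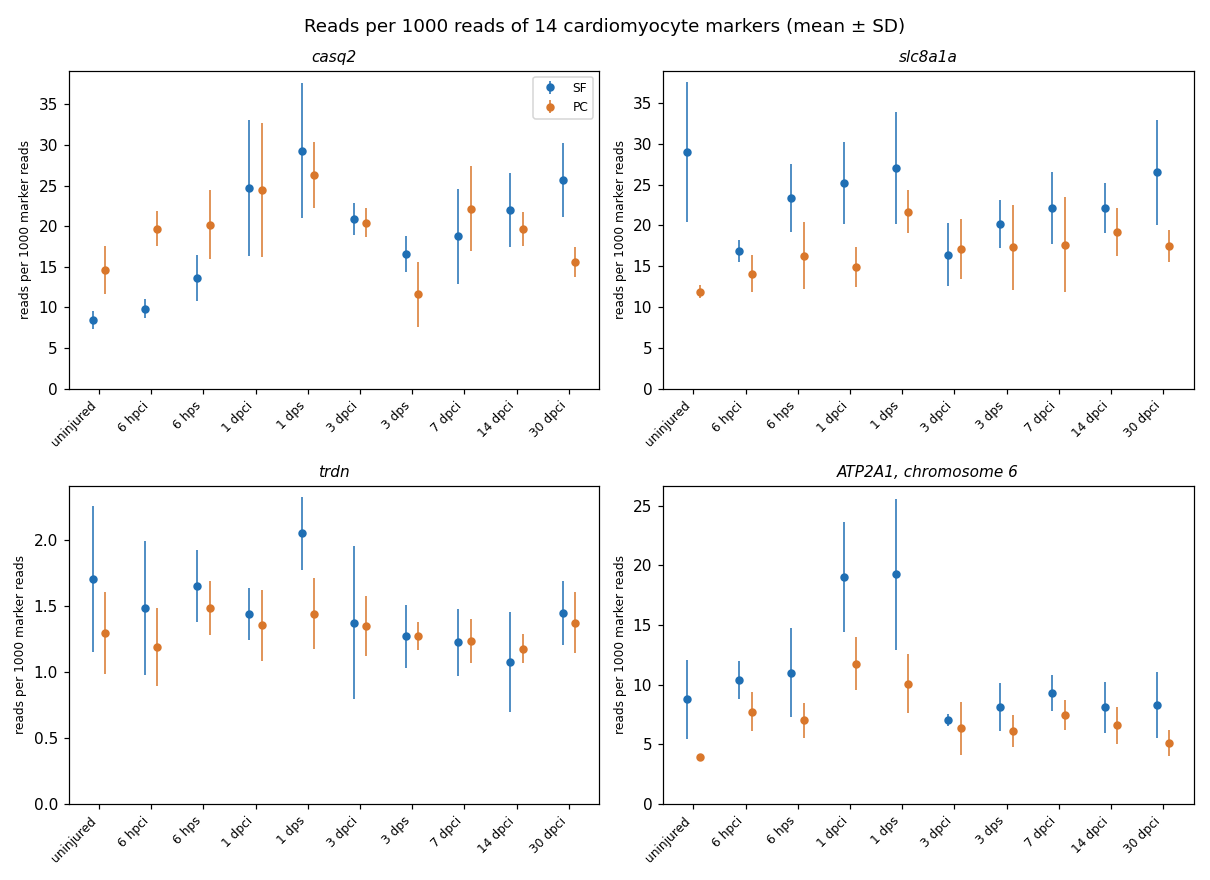
Reads per 1000 reads of 14 cardiomyocyte markers (mean ± SD; n = 3 for uninjured and 5 for other groups) for casq2, slc8a1a, trdn and the ATP2A1 gene on chromosome 6, in SF (blue) and PC (orange). In SF, casq2 is at 8.42 in uninjured ventricles and at 25.6 at 30 dpci, and in PC at 14.6 and 15.6.

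Across the 20 group means of log2(CPM + 1), the levels of slc8a1a and trdn ran most alike (Pearson r = 0.88), and casq2 and RYR2 least (r = 0.12). The genes outside the set whose group means were most like the average of the 9 were RBM24 (r = 0.93), ACTA1 (r = 0.90), slc25a5 (r = 0.90), RTN4 (r = 0.90) and cox5ab (r = 0.90), of 5789 genes compared. These values are descriptions over groups that differ in cardiomyocyte content.

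Of 107 other calcium handling genes, 87 could be tested. Over the 6 injury comparisons in SF 10 of 522 tests were called higher and 10 lower (3.83%), beside 2.54% of the tests of all genes. In PC 3 were called higher and 2 lower (0.958%), beside 1.47%. Between populations 39 of 870 were called higher and 31 lower in SF (8.05%), beside 6.74%. Most often called was fkbp1aa, which encodes a small protein bound to the release channel. It was called higher in SF in 8 of 10 conditions, and at 3 dpci averaged 281 ± 21 CPM in SF ventricles, against 123 ± 16 CPM in PC ventricles (SD, n = 5 each; log2 change 1.44 ± 0.21). In the same fit the sensor of store calcium stim1b was called higher in SF in 6 conditions and higher in PC at 6 hpci than at 6 hps. At 3 dps stim1b had 17.1 ± 3.8 CPM in SF and 8.0 ± 1.3 CPM in PC. Of the other genes often called, cacna2d4b, CACNA2D4 and casq1a had group means of at most 4.4 CPM, and many of their libraries had no read. With 5 calls each, adrb1 and smdt1a tied with casq1a, which was named for its larger change. The mitochondrial uniporter subunit smdt1a averaged 136 CPM over all libraries, and its 5 calls, all lower in SF than in PC with overlapping groups, were lost without the factor.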

How the data were processed

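The authors prepared QuantSeq 3′ libraries from total RNA of single ventricles. Per the labels, reads were processed with bcl2fastq 2.20.0, Trim Galore 0.6.4 and STAR 2.7.6a, on Mexican tetra 2.0 with a customized Ensembl annotation that held 8721 models made by the authors. The use of strand and of reads matching several genes is not given in the sources used here. The authors deposited a table of raw counts, with whole numbers of reads, which all tests used, and regularized log2 values, used only as an alternative. In the deposited log2 table, replicate 3 of PC 6 hpci has 1 value too extreme for log2 expression, so that column was read as a score. Coordinates are those of the deposited annotation, whose start and end values are 1-based.

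A gene was kept if any library reached 1 CPM (18763 genes). edgeR 4.0.16 in R 4.3.3 fitted 20 group coefficients and 1 RUVg factor to all 96 libraries, whose control genes had a coefficient of variation of CPM below the median of all genes. SEs were derived from the log2 change and its F statistic. Tests were two-sided, and p-values were adjusted over all genes tested. Scripts were tested on simulated data. Alternatives were RLE size factors, DESeq2, 0 or 2 RUVg factors, other filters, fits of only the groups compared, no fold threshold, a replicate block and leaving out each replicate. Each library is 1 ventricle, and no batch is named in the labels. Titles gave groups and replicate numbers. In the order of deposition, replicate 1 at 6 hps and replicate 3 at 3 dps of SF stand among PC libraries, and those of PC among SF libraries. Their titles, population labels and column names match, and of 34 genes that separated the populations in every library of the other 8 conditions, 94.1% to 100% were nearer the labelled population in these 4 libraries (97.1% to 100% in the other 16 of those groups). Named were all 9 genes, the 5 other calcium genes with the most calls (ties by the largest absolute log2 change), the 5 genes most like the average of the 9 and up to 3 markers. Members and lists were chosen with earlier results of these data known.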

Additional observations from a re-analysis of the deposited data

Results flagged for a closer look

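Of 90 groups of 5 ventricles examined for the well-detected genes, 6 held a library far from the other 4, where chance gives about 1 in 20. In SF at 1 dpci, casq2 was at 1159 CPM in replicate 4 and at 383 CPM on average in the others. In PC at 1 dpci it was at 1504 CPM in replicate 1, against 518 CPM on average in the others. For ryr2b, SF at 14 dpci had 83.2 CPM in replicate 3, with the next at 48.1 CPM, and PC at 14 dpci had 25.6 CPM in replicate 2, with the next at 49.8 CPM. In SF at 1 dps trdn was at 136 CPM in replicate 1, with the next at 92.1 CPM. In SF at 3 dpci RYR2 was at 25.1 CPM in replicate 5, with the next at 12.7 CPM. The 4 rarely read genes gave 26 further such groups, which are not listed, since single reads set them.

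The change of casq2 from uninjured ventricles differed between the populations, by 1.70 at 14 dpci and by 1.94 at 30 dpci on the log2 scale (SF change minus PC change, edgeR quasi-likelihood test with the RUVg factor). The call at 14 dpci was lost under 3 of 13 alternatives, the fit without the factor among them, and the call at 30 dpci under 2. Both differences share the same uninjured ventricles.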

How the results depend on the processing

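The 15 calls of these genes kept their direction under every alternative run. The rises of casq2 in SF at 14 and 30 dpci and at 1 and 3 dps were called under all 13 alternatives each. Without the RUVg factor the calls went to 11 (from 4) for cryo-injury in SF and 2 (from 1) in PC. Between populations they went to 9 (from 6), all higher in SF. They went to 1 (from 2) for the difference of the changes and 5 (from 0) for later against earlier dpci. With 2 RUVg factors 16 calls (from 6) were made between populations and 10 (from 2) for sham surgery. Of the 15 calls, 7 were lost without the factor, 6 with 2 factors, 5 when the compared groups were fitted alone and 5 with the filter of 10 counts in 5 libraries. The call of CASQ2 could not be tested under that filter, which this gene did not pass. A filter of 10 counts in 5 libraries gave 0 calls for cryo-injury in PC and 8 for sham surgery. DESeq2, and edgeR with no fold requirement, gave 4 each for sham surgery, and fitting the compared groups alone gave 2 for cryo-injury in PC. Leaving out each replicate in turn gave 2 to 8 calls for cryo-injury in SF, 0 to 2 in PC, 5 to 6 between populations, 0 to 3 for the difference of the changes, 2 to 6 for sham surgery and 0 to 4 for later against earlier dpci. With a replicate block, 5 calls were made for cryo-injury in SF and the other counts were 1, 6, 2, 2 and 0. Same-numbered libraries of different groups deviated together with a median r of 0.005 over 875 pairs. Those pairs ranged from -0.39 to 0.43, and differently numbered pairs from -0.43 to 0.42. A median over all groups cannot show sharing that is limited to some of them. CPM without TMM moved 6 of 100 group means by more than 1 SD. In the deposited regularized log2 values, 0 of the 13 calls between 2 groups had the other sign. Depth limits cacna1c and CASQ2. For PLN and slc8a1b, gene models that stop just past the coding sequence are a further limit beside depth.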
